A study of Mus musculus with 16 samples.

Results

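Airway epithelium of Mmp7-null mice was compared with that of wild-type mice in cultures that had not been injured. The comparison took 8 of the 16 arrays of the study, 4 from uninjured Mmp7-null cultures and 4 from uninjured wild-type cultures, and covered 18193 genes, each read by its brightest probe set on average across the 16 arrays. The cultures, from C57BL/6 mice, had their upper face in air and their lower face in medium (an air-liquid interface) and were held without serum for 24 hours before total RNA was taken. The null cultures were Mmp7-/-, and the labels name no other allele or agent in either uninjured group. The remaining 8 arrays came from cultures of the same genotypes wounded with 3 scratches and are used only where stated. The labels do not tie cultures to animals, so the p-values measure the spread between these cultures, which may be technical.

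Mmp7 encodes matrilysin, a small secreted metalloproteinase of mucosal epithelia that cleaves cell-surface and matrix proteins such as E-cadherin and syndecan-1. At an air-liquid interface, airway basal cells give rise to secretory cells and to multiciliated cells. A multiciliated cell first amplifies its centrioles, partly on a structure called the deuterosome, and then grows from each a motile axoneme of microtubule doublets carrying dynein arms and radial spokes around a central pair. Foxj1 and RFX transcription factors switch on most of these genes.

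Values are log2 of the deposited array intensity, and every difference below is Mmp7-null minus wild-type on that scale, so that a difference of 1 is a 2-fold change. Control transcripts on arrays that lacked them reached 2.765 at their 95th percentile, which served as the background level, and 12562 genes had a mean above it. The Mmp7 probe set lay between 2.13 and 2.17 on all 8 uninjured arrays, at background in both genotypes, and its means in scratched cultures were 2.32 (Mmp7-null) and 2.17 (wild-type). It therefore did not check the genotype labels. Cyp2f2, a cytochrome P450 of club cells, was among the bright signals of the cultures, at a mean of 15.43 in Mmp7-null and 15.44 in wild-type arrays. Scgb1a1, the club cell secretoglobin, stood at 8.42 and 8.61, and Trp63, the transcription factor of basal cells, at 9.08 and 9.12. None of these 3 genes passed the test. Ptprc, which marks leukocytes, Pecam1, which marks endothelium, and Col1a1, a collagen of fibroblasts, were at background in both genotypes. The arrays carried 1 of 3 spiked-in control transcripts. Null replicates 1 and 2 held the Lys transcript, null replicates 3 and 4 and wild-type replicate 1 the Phe transcript, and wild-type replicates 2 to 4 the Trpn transcript, so the set moved with genotype except within the Phe arrays. With genotype and injury in the fit, 1 gene differed between the Lys and Phe sets and 3 between the Trpn and Phe sets (limma, Benjamini-Hochberg adjusted p under 0.05; 728 and 523 at an unadjusted p under 0.05).

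A total of 872 genes were called different between the genotypes (limma over all 16 arrays, Benjamini-Hochberg adjusted p under 0.05), which is 4.79% of the genes tested. Of these, 418 (2.30%) were higher and 454 (2.50%) lower in Mmp7-null cultures. Each list count of called genes below stands beside these shares of all genes. The share of all genes at an unadjusted p under 0.05 (limma) is not given. List counts at that looser threshold therefore cannot be set against 2.30% and 2.50%. Most called differences were small, with a median size of 0.474, and 67 exceeded 1, 32 of them higher and 35 lower. The count was 480 without null replicate 1 and 534 without wild-type replicate 1. The 4 null arrays did not overlap the 4 wild-type arrays for 2122 genes (11.7%). When the spike-in set entered the fit as a block, 57 genes (0.313%) were called, 54 of them among the 872, and the median standard error rose from 0.098 to 0.139. All 872 differences kept their sign in that fit and also within the Phe set (2 null arrays and 1 wild-type array). Within the Phe set their size was 0.891 of the main value in the median. The 872 genes were chosen on these same arrays, so the shared sign and size were largely set by that choice. They do not measure the part of the spike-in set. The share of the result that belongs to the set was not tested further; below, a gene is said to hold with the block where its adjusted p also stayed under 0.05 in that fit.

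**Figure D1:**
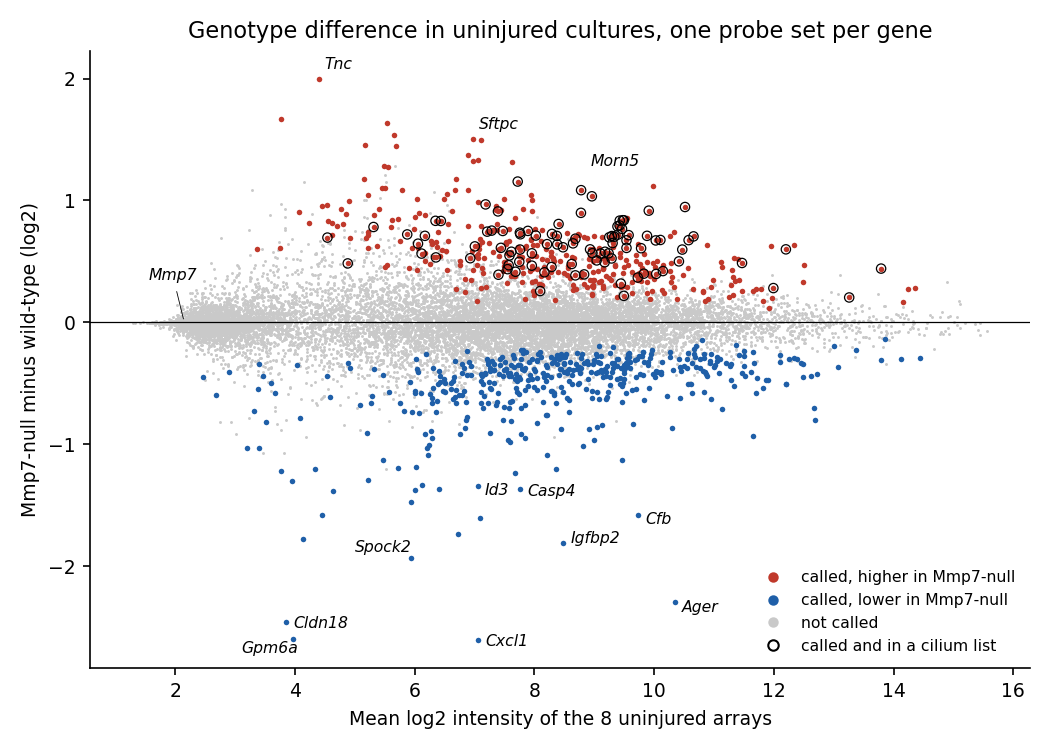
Genotype difference (Mmp7-null minus wild-type, log2, vertical) against mean log2 intensity (horizontal) for 18193 genes of uninjured cultures; colours mark the 418 genes called higher and the 454 called lower, and black rings mark called genes of the cilium lists. All 93 ringed genes lie above 0, and Cxcl1, Gpm6a, Cldn18 and Ager lie below -2.

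The genes of motile cilia formed the largest group of higher genes among the 50 lists examined. The lists were written with earlier results of these data known, so a ranking among them is a description only. Of 199 measured genes in 8 cilium lists, 93 were higher in Mmp7-null cultures and 0 lower, while at an unadjusted p under 0.05 the counts were 143 and 1 (limma). The median difference over the 199 genes was 0.441, against -0.009 over all genes, and 186 were positive. Relative to the mean of the wild-type uninjured arrays, the median cilium gene stood 0.62, 0.40, 0.43 and 0.30 higher in null replicates 1 to 4, whereas the wild-type arrays lay between -0.10 and 0.08. The 4 null arrays were thus all above the 4 wild-type arrays, with replicate 1 the highest. With the block the median was 0.432 and 14 genes were called, and within the Phe set the median was 0.356. In these bulk samples, more multiciliated cells and more RNA per such cell cannot be told apart.

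Among 14 measured regulators of multiciliated differentiation, 3 were higher, Myb, Foxj1 and Ccno. Myb, a transcription factor that acts early in multiciliated differentiation, read 10.33, 10.30, 10.09 and 10.24 in wild-type and 10.91, 10.99, 10.89 and 10.87 in null arrays. The groups did not overlap, the difference was 0.67 ± 0.06 (SE, adjusted p = 4.21e-05, limma), and it held with the block. Foxj1, the transcription factor of the motile cilium program, read 9.07, 8.94, 8.96 and 9.14 in wild-type and 9.61, 9.54, 9.56 and 9.498 in null arrays. These groups did not overlap either, with a difference of 0.52 ± 0.12 (adjusted p = 0.0228, limma), but its adjusted p passed 0.05 when any of 6 arrays was left out and reached 0.0745 at most. Ccno, an atypical cyclin needed for centriole amplification, was 0.48 ± 0.10 higher (adjusted p = 0.0165), and its call was lost without null replicate 3 or wild-type replicate 3 (at most 0.0536). The means of Rfx2 and Rfx3, which encode RFX factors, were 0.46 and 0.43 higher and did not pass the test (adjusted p = 0.169 and 0.0717, limma). Trp73, which acts upstream of Foxj1, was low in both genotypes, at 3.75 and 3.52.

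Centriole amplification genes showed the same direction, with 13 of 27 measured members higher and 0 lower (18 and 1 at an unadjusted p under 0.05). Deup1, the deuterosome scaffold, read 8.97, 9.09, 8.89 and 9.08 in wild-type and 9.90, 9.92, 9.80 and 9.75 in null arrays. Its lowest null array was above its highest wild-type array, and the difference of 0.83 ± 0.08 (1.78-fold, adjusted p = 7.01e-05, limma) held with the block. Plk4, the kinase that starts centriole formation, was 0.71 higher, Ccp110, which caps centrioles, 0.70, Stil, of the centriolar cartwheel, 0.74, and Cep152, which recruits Plk4, 0.71. These 4 genes were called, and none held with the block (adjusted p between 0.0565 and 0.355). Cetn4, a centrin, and Cep120 were 0.61 and 0.39 higher and held with it.

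RFX factors bind the X-box, a pair of half-sites, written GTNNCC and GGNAAC, set 1 or 2 bases apart. Both strands of the 250 bases before each gene start were searched in RefSeq promoters (build GRCm38.p6), which were found for 174 of the 199 cilium genes. A match was present for 21 of these 174 genes (12.1%), for 12 of the 80 called higher (15%) and for 9 of the 94 not called (9.57%), against 314 of 14452 compared genes with a promoter (2.17%). Matches describe letters and not bound sites. The stretches of 6 called genes are shown because they span the groups described here, a regulator (Ccno), the deuterosome (Deup1), an inner-arm and nexin-link gene (Iqca), radial spoke genes (Lrrc23 and Cfap206) and a tektin (Tekt4). Each stretch reads from 5′ to 3′ on the strand of the gene and ends before the gene start, with the match in capitals.
Ccno, chr13:112987552-112987636, + strand: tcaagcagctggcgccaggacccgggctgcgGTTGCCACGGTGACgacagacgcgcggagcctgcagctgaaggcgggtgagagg
Deup1, chr9:15627880-15627973, - strand: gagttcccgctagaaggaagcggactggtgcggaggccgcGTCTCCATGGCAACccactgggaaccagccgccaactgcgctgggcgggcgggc
Iqca, chr1:90153483-90153576, - strand: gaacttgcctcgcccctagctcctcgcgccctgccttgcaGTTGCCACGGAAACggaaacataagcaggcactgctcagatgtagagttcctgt
Lrrc23, chr6:124779839-124779931, - strand: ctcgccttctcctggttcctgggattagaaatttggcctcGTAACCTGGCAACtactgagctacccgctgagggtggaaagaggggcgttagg
Cfap206, chr4:34730207-34730269, - strand: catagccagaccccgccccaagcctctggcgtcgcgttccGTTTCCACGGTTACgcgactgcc
Tekt4, chr17:25471390-25471483, + strand: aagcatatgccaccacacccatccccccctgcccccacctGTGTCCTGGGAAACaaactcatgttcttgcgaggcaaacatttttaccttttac
The Lrrc23 match has a gap of 1 base and the other 5 a gap of 2, and those of Ccno and Cfap206 lie on the strand opposite to the gene.

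The axoneme itself followed. Axonemal tubulins and proteins inside the doublets had 30 of 44 measured members higher, radial spokes and the central pair 16 of 31, inner dynein arms and nexin links 11 of 20, and outer dynein arms 3 of 12. No member of these 4 lists was lower, and at an unadjusted p under 0.05 the counts of higher members were 39, 24, 14 and 7 with 0 lower (limma). Lrrc23, a radial spoke protein, read 10.04, 10.09, 9.89 and 10.16 in wild-type and 11.07, 11.05, 10.996 and 10.84 in null arrays. Its difference of 0.95 ± 0.09 (1.93-fold, adjusted p = 7.01e-05, limma) held with the block, as did that of Morn5 (1.08 ± 0.12, adjusted p = 0.000442). The radial spoke head genes Rsph1 and Rsph9 were 0.60 and 0.72 higher. Tekt1, a tektin of the doublets, read 8.999, 8.95, 8.96 and 9.01 in wild-type and 9.82, 9.68, 9.66 and 9.36 in null arrays, without overlap (0.65 ± 0.09, adjusted p = 0.00109). Dnah12, an inner-arm heavy chain, read 6.82, 7.22, 6.73 and 6.98 in wild-type and 8.06, 7.82, 7.89 and 7.62 in null arrays, and its difference of 0.91 ± 0.12 held with the block. Dnah5, a heavy chain of the outer arm, read 4.65, 5.01, 5.10 and 4.84 in wild-type and 5.65, 5.27, 5.12 and 5.40 in null arrays. The groups of Dnah5 were separated by only the step from 5.10 to 5.12, and it did not pass the test (0.46 ± 0.14, adjusted p = 0.0844, limma). The abundant tubulin genes differed less, Tuba1a by 0.44 and Tubb4b by 0.20, and both were called. The call of Tubb4b was lost when all its probe sets were averaged (0.06, adjusted p = 0.351, limma). Its other probe sets were dim, at means of 1.57 to 3.86, so that average cannot check the call.

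Genes that build and supply the axoneme were higher in part. In the list of intraflagellar transport and the BBSome, 11 of 37 were higher and 0 lower (26 and 0 at an unadjusted p under 0.05). Ift46, of the anterograde transport complex, read 8.95, 8.94, 8.98 and 9.11 in wild-type and 9.95, 9.80, 9.79 and 9.58 in null arrays. It did not overlap between groups and held with the block (0.79 ± 0.07, adjusted p = 5.61e-05). Wdr19, of the retrograde complex, was 0.83 ± 0.15 higher (adjusted p = 0.00574), and its second probe set gave 0.93. Bbs4, of the BBSome, was 0.38 higher and was not called (adjusted p = 0.0978). Dynein arm assembly factors had 6 of 14 members higher, led by Zmynd10, at 0.71 ± 0.10 (adjusted p = 0.00108), which held with the block.

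**Figure D2:**
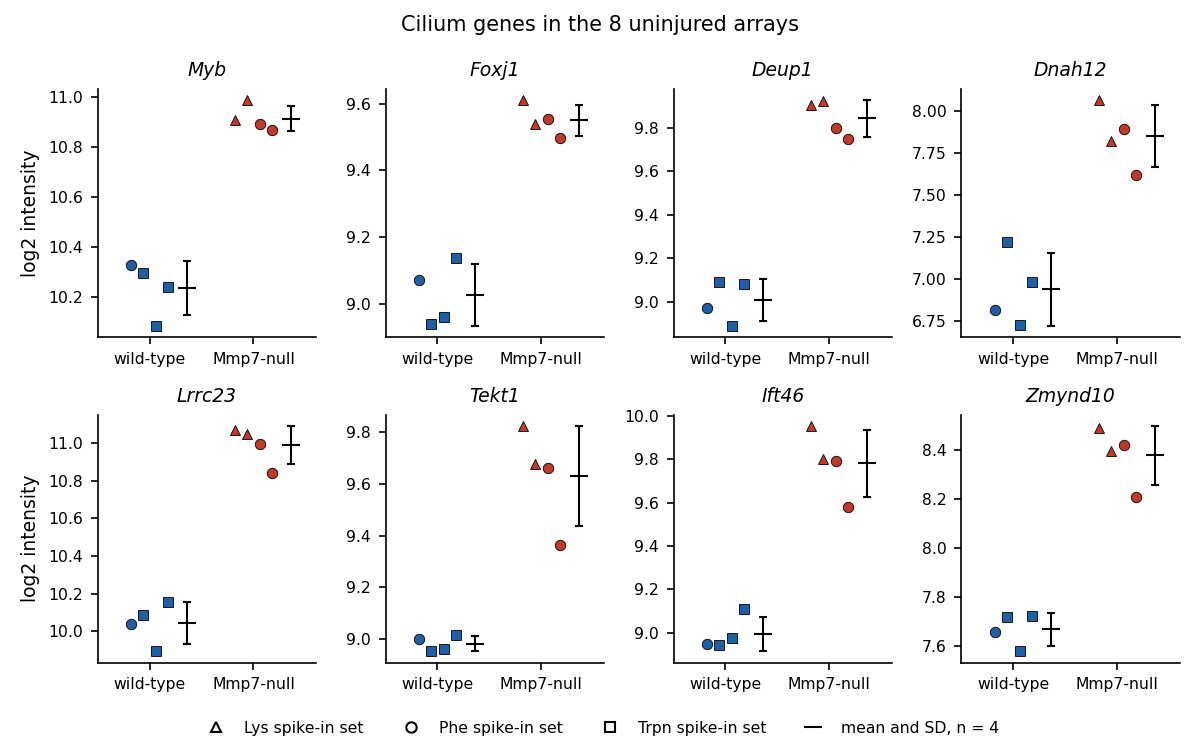
Log2 intensity of 8 cilium genes on the 4 wild-type (blue) and 4 Mmp7-null (red) uninjured arrays; marker shapes give the spike-in set and bars the mean and SD of 4 arrays. In each panel every null array lies above every wild-type array, and circles mark the Phe set, held by 1 wild-type and 2 null arrays. The genes were chosen with results of these arrays known, so the panels do not measure the part of the spike-in set.

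Markers of the alveolar type 1 cell, the flat cell of gas exchange, were the clearest lower group among the cell type lists. These lists too were written with earlier results of these data known. All 25 measured markers had a lower mean in Mmp7-null cultures, 14 were called lower and 0 higher (18 and 0 at an unadjusted p under 0.05, limma), and the median difference was -0.503. Ager, which encodes the receptor for advanced glycation end products, read 11.53, 11.59, 11.45 and 11.40 in wild-type and 8.95, 9.46, 8.92 and 9.47 in null arrays. The null arrays were all far below the wild-type arrays, the difference was -2.29 ± 0.21 (4.90-fold, adjusted p = 8.09e-05), and its other probe set gave -2.32. Cldn18, a claudin, read 5.35, 5.04, 5.40 and 4.54 in wild-type arrays and 2.60, 2.67, 2.64 and 2.59 in null arrays. The null values were at background, so the gene was at least 4.99-fold lower (fitted difference -2.46 ± 0.15, adjusted p = 3.44e-06). Igfbp2, an insulin-like growth factor binding protein, read 9.52, 9.29, 9.29 and 9.45 in wild-type and 7.89, 7.29, 7.26 and 7.85 in null arrays, a difference of -1.81 ± 0.21 without overlap (adjusted p = 0.000442).

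Ager, Cldn18 and Igfbp2 held with the block, as did the basement membrane collagen genes Col4a3 (-0.98) and Col4a4 (-0.84). Spock2, a proteoglycan, and Clic5, a chloride intracellular channel protein, were lower as well (-1.93 and -1.21), and with the block their adjusted p was 0.0603 and 0.0554 (limma). Not every type 1 marker moved by that much. Hopx was called at -0.34 (adjusted p = 0.0359) but lost the call when any of 6 arrays was left out. Pdpn and Aqp5, also used as type 1 markers, were bright in both genotypes, at 11.42 and 11.48 and at 13.85 and 13.99 in null and wild-type arrays, and were not called. With the block the list median was -0.405 with 5 genes lower, and within the Phe set it was -0.453. Gpm6a, a membrane glycoprotein outside the list, fell from 5.25, 5.89, 4.86 and 5.03 in wild-type arrays to between 2.59 and 2.75 in null arrays. Those null values were at background, so it was at least 5.63-fold lower (adjusted p = 0.000442, limma), and it held with the block.

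Alveolar type 2 markers did not move together, with 3 higher and 1 lower of 25 and a median of -0.0089. Sftpc, the surfactant protein of that cell, read 6.07, 6.32, 6.19 and 6.33 in wild-type and 8.10, 7.82, 7.83 and 7.17 in null arrays. It was 1.504 ± 0.15 higher without overlap (2.84-fold, adjusted p = 0.000171) and held with the block, while its dimmer probe set, at a mean of 3.33, gave -0.08. Sftpb, at 3.91 in null and 4.24 in wild-type arrays, and Sftpd, at 13.75 and 13.88, were not called.

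In the lists of other airway cells, smaller shares were called than the 56.0% of type 1 markers. The shares of basal (14.3%) and goblet and mucus genes (11.1%) were above the 4.79% of all genes. That of club and secretory markers (5.13%) was near it. Of 39 club and secretory markers, 2 were lower (Cyp2b10 at -0.57 and Pigr at -0.70) and 0 higher (8 and 5 at an unadjusted p under 0.05, limma). The call of Pigr was lost without null replicate 1, wild-type replicate 2 or wild-type replicate 3. Another Pigr probe set, at a mean of 10.60, gave -1.34. Of 28 basal markers, 4 were lower and 0 higher (7 and 1 unadjusted). Sfn, the gene of stratifin, stood at -0.65 ± 0.10 (adjusted p = 0.00219). Krt5, the basal keratin, read 11.13, 11.10, 11.22 and 11.26 in wild-type and 10.82, 10.71, 10.85 and 10.89 in null arrays. These did not overlap, but the call (-0.36 ± 0.09, adjusted p = 0.0411) was lost on leaving out any of the 8 arrays. Of 27 genes listed as goblet and mucus, 3 were higher and 0 lower (5 and 2 at an unadjusted p under 0.05, limma). The median of that list was -0.0103, 10 of the 27 differences were positive, and 0 genes were called with the block. The 3 include Agr3, at 0.69 ± 0.09 (adjusted p = 0.000981, limma), and whether it marks goblet cells here was not tested. Of 23 markers of tuft, neuroendocrine and ionocyte cells and of 34 leukocyte markers, 0 were called in either direction, with 1 lower in each list at an unadjusted p under 0.05 (limma).

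Tnc, the matrix glycoprotein tenascin C, had the largest called difference in the higher direction. It read 3.27, 3.22, 3.42 and 3.67 in wild-type and 5.98, 5.31, 4.69 and 5.61 in null arrays, without overlap, and the difference of 2.00 ± 0.23 (3.99-fold, adjusted p = 0.000442, limma) held with the block. Acta2, the smooth muscle actin, was 1.37 ± 0.26 higher (adjusted p = 0.00816), Lgals1, a galectin, 1.498 ± 0.24 (adjusted p = 0.00315), and Sema5a, a semaphorin, 1.67 ± 0.24 (adjusted p = 0.00159). The 3 genes were not called with the block, and Acta2 rested on a probe set that may bind several transcripts, since its remaining probe sets, at background, gave -0.01 and 0.03. Acta2 was the 1 gene called of 17 smooth muscle and cartilage genes, whose median was -0.0106. Of 26 fibroblast markers, 3 were higher and 2 lower, with a median of 0.0005. Dcn, a matrix proteoglycan, was 1.00 ± 0.20 higher and Ogn, another, stood at -1.09 ± 0.14. The summed intensity of the 26 fibroblast markers ran from 2509 to 3098 in null and from 3584 to 3772 in wild-type arrays. The part of other cells in these differences was not tested.

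**Figure D3:**
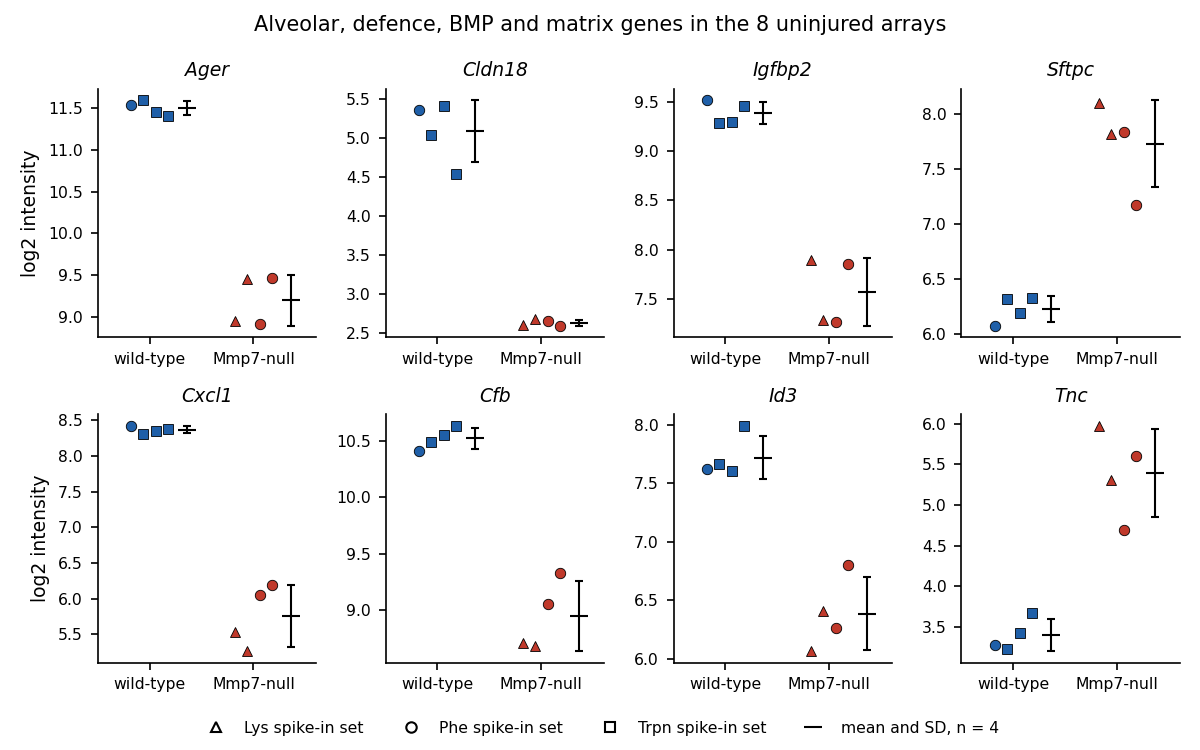
Log2 intensity of 8 genes on the 4 wild-type (blue) and 4 Mmp7-null (red) uninjured arrays; marker shapes give the spike-in set and bars the mean and SD of 4 arrays. Sftpc and Tnc are higher and the other 6 genes lower on every null array than on any wild-type array.

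Cxcl1, a neutrophil-attracting chemokine, had the largest called difference in the lower direction. It read 8.42, 8.31, 8.35 and 8.38 in wild-type and 5.54, 5.26, 6.06 and 6.19 in null arrays. The null arrays were all far below the wild-type arrays, which varied little (SD 0.05, n = 4), with a difference of -2.60 ± 0.29 (6.08-fold, adjusted p = 0.000442, limma) that held with the block. A second probe set of Cxcl1 gave -2.66. Cxcl5, another neutrophil chemokine, was brighter and fell by 0.47 on the log2 scale (adjusted p = 0.00109), without holding with the block. Of 44 chemokines and cytokines, 3 were higher and 3 lower, with Csf2, the growth factor GM-CSF, on the higher side (0.79 ± 0.14, adjusted p = 0.00539). Cfb, complement factor B, read 10.41, 10.49, 10.55 and 10.63 in wild-type and 8.71, 8.68, 9.05 and 9.33 in null arrays, a difference of -1.58 ± 0.19 without overlap (adjusted p = 0.000543, and 0.0618 with the block). Within the Phe set the difference of Cfb was -1.22. Of 22 complement genes, 2 were lower and 0 higher (3 and 2 at an unadjusted p under 0.05, limma), with a median of -0.0055. Their summed intensity was higher in null (33368 to 41378) than in wild-type arrays (28232 to 33007), opposite to Cfb.

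The class II genes H2-Aa, H2-Ab1 and Cd74, which load and present peptides from outside the cell, were lower (-1.38, -1.03 and -1.24). They were 3 of 12 measured class II genes, with 0 higher (4 lower and 0 higher at an unadjusted p under 0.05, limma). Class I genes had 3 of 20 lower and 0 higher (8 and 0 at an unadjusted p under 0.05), among them B2m, the common light chain, at -0.80 ± 0.13 (adjusted p = 0.00372). None of these class I and class II genes held with the block. Of the 34 leukocyte markers, which include genes of neutrophils and T cells, 12 were above background, and Ptprc was at background in both genotypes. The part of leukocytes in these differences was not tested. Interferon response genes had a median of -0.263 and none of 47 was called (0 higher and 5 lower at an unadjusted p under 0.05, limma).

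In the TGF-beta and BMP pathways, in which ligands of 1 superfamily signal through SMAD proteins, 10 of 43 measured genes were lower and 0 higher (16 and 3 at an unadjusted p under 0.05, limma). The list median, -0.0578, was near that of all genes. Id3, a BMP target that blocks basic helix-loop-helix factors, read 7.62, 7.67, 7.60 and 7.99 in wild-type and 6.06, 6.41, 6.26 and 6.80 in null arrays. It did not overlap between groups (-1.34 ± 0.19, adjusted p = 0.00132). Its relatives Id1 and Id2 were lower by smaller amounts by their brightest probe sets (-0.64 and -0.44). Another Id2 probe set gave -0.47, and a dim one, at a mean of 3.12, gave -1.64. Of the ligands, Bmp4 read 7.67, 7.94, 7.58 and 7.63 in wild-type and 6.41, 6.49, 7.11 and 7.18 in null arrays, where the 2 Lys arrays were below the 2 Phe arrays. Its difference was -0.91 ± 0.17 (adjusted p = 0.00736) and -0.52 within the Phe set. Tgfb2, a ligand, and Smad3 and Smad6, a transducer and an inhibitor, were lower too (-0.47, -0.31 and -0.45). None of the 10 genes was called with the block, where 14 were lower and 0 higher at an unadjusted p under 0.05.

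Among other signalling receptors, Notch1 was lower at -0.58 ± 0.07 (adjusted p = 0.000766) and Fzd5, a Wnt receptor, at -0.70 ± 0.08 (adjusted p = 0.000444), and both held with the block. In the lists they belong to, 1 of 30 Notch pathway genes was higher and 3 lower, and 4 of 54 Wnt pathway genes were lower and 0 higher, against 2.30% higher and 2.50% lower among all genes.

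Called genes in the lists of cell contact and of metalloproteinases were lower. Among all genes, 2.50% were lower and 2.30% higher. In the list of adherens junctions and desmosomes, 5 of 26 were lower and 0 higher (8 and 0 at an unadjusted p under 0.05, limma), including Jup, the gene of plakoglobin (-0.52 ± 0.06, adjusted p = 0.000519), and Cdh1, the gene of E-cadherin (-0.23 ± 0.05, adjusted p = 0.0141). Of 37 metalloproteinases and their inhibitors, 5 were lower and 0 higher (7 and 1 at an unadjusted p under 0.05). Mmp23 led these at -0.87 ± 0.13 (adjusted p = 0.00198), and Mmp14, a membrane-bound collagenase, stood at -0.84 ± 0.22 (adjusted p = 0.0427), a call lost on leaving out any of 7 arrays. Of 29 genes listed as substrates or partners of matrilysin, 6 were lower and 2 higher. Cxcl1, Notch1 and Cdh1 are among the 6.

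Xenobiotic metabolism had 9 of 50 genes lower and 0 higher (17 and 7 unadjusted), against 2.50% lower and 2.30% higher among all genes. Cyp1b1, an aryl hydrocarbon receptor target, was at -0.62 ± 0.07 (adjusted p = 0.000542, limma) and held with the block. Akr1c14, an aldo-keto reductase, was at -0.87 ± 0.11 (adjusted p = 0.000543, limma). Immediate early and AP-1 genes had 6 of 43 lower, led by Atf3 at -0.95 ± 0.15 (adjusted p = 0.00219), and 2 higher. Of 19 circadian clock genes, 3 were higher and 1 lower (7 and 5 at an unadjusted p under 0.05, limma), with a median of -0.0029. Arntl, the gene of BMAL1, was the 1 lower at -0.92 ± 0.14 (adjusted p = 0.00169), and Dbp, an output gene of the clock, read 9.49, 9.45, 9.43 and 9.26 in wild-type and 10.02, 9.998, 10.06 and 10.11 in null arrays. Dbp was 0.64 ± 0.10 higher (adjusted p = 0.00225) and held with the block. The labels give no hour of RNA isolation, so clock time and genotype cannot be told apart here. Ribosomal protein genes, as a list less tied to cell type, had 0 of 33 called (1 higher and 3 lower at an unadjusted p under 0.05, limma).

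Of 61 genes of G2 and mitosis, 10 were higher and 0 lower in uninjured null cultures (28 and 0 at an unadjusted p under 0.05, limma). The other 51 were not called. Among all genes, 2.30% were higher and 2.50% lower. The list median was 0.267, against 0.161 with the block, where 1 gene was called, and 0.194 within the Phe set. Cdk1, the mitotic kinase, read 8.07, 8.14, 7.91 and 8.08 in wild-type and 8.60, 8.64, 8.62 and 8.47 in null arrays, a difference of 0.53 ± 0.07 without overlap (adjusted p = 0.000947). Cks2, its small partner, was 0.48 ± 0.05 higher (adjusted p = 0.000331) and was the 1 mitotic gene of the list that held with the block. Aurka, a spindle kinase, was 0.81 ± 0.13 higher (adjusted p = 0.00243). Mki67, the common marker of cycling cells, was not called, at 7.99 in null and 7.92 in wild-type arrays.

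**Figure D4:**
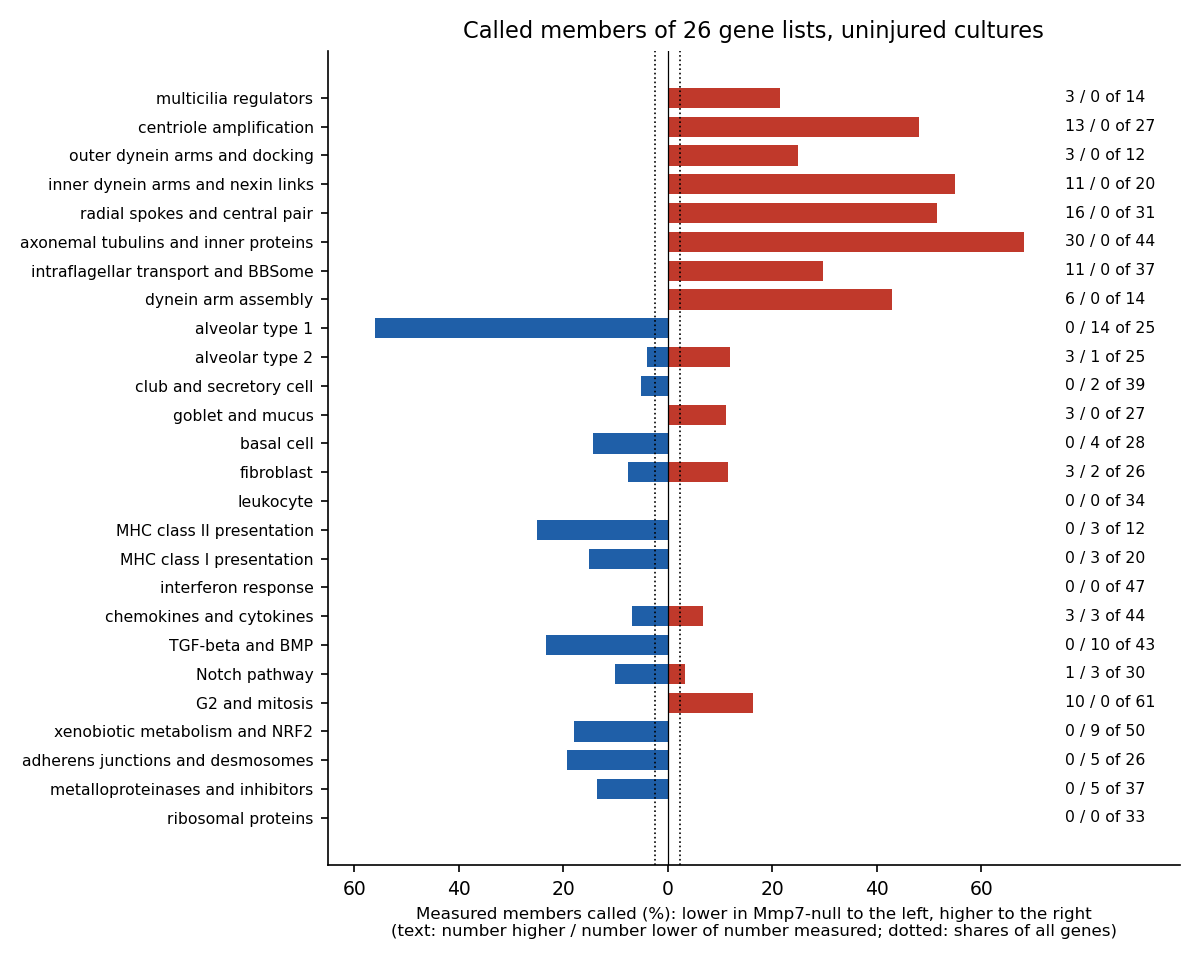
Share of measured members called higher (right, red) or lower (left, blue) in Mmp7-null uninjured cultures for 26 gene lists, with the counts at the right and the shares of all genes (2.30% higher and 2.50% lower) as dotted lines. The 8 cilium lists extend only to the right, and the alveolar type 1 list, with 14 of 25 lower, extends farthest to the left.

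The Mmp7 gene lies in a cluster of metalloproteinase genes on mouse chromosome 9, and its 62 measured neighbours (22 before it and 40 after it in RefSeq gene order) were listed because genes beside a targeted allele can be inherited with it. Of these, 6 were higher and 2 lower, or 12.9%, against 4.79% of all genes, and 3 were called without null replicate 1, null replicate 2 or wild-type replicate 1. Gucy1a2 (0.58 ± 0.14, adjusted p = 0.0276), Aasdhppt (0.37 ± 0.09, 0.0351) and Pdgfd (-1.20 ± 0.31, 0.0395, limma) were among those called. They lie 20, 19 and 12 genes before Mmp7. Casp4, an inflammatory caspase 14 genes before Mmp7, read 8.43, 8.63, 8.28 and 8.42 in wild-type and 7.20, 7.04, 6.93 and 7.12 in null arrays. Its difference of -1.37 ± 0.11 (2.59-fold, adjusted p = 3.64e-05, limma) without overlap held with the block. Of the genes on either side of Casp4, Casp1 was -0.34 ± 0.10 (adjusted p = 0.0747), not called, and Casp12 was called at 0.31 ± 0.08 (adjusted p = 0.0338), which was lost on leaving out any of 7 arrays. The metalloproteinase genes Mmp3 and Mmp10, 5 and 3 genes before Mmp7, were at background in both genotypes. Birc2 and Birc3, 2 and 3 genes after it, were not called (0.12 and 0.04). Yap1, the next gene, was not called by its brighter probe set (0.02), while its dimmer one gave -1.17. Deup1 and Cfap300 are cilium genes 36 and 5 genes after Mmp7, and Cep295, a centriole gene 34 after it, was called at 0.47, a call lost on leaving out any of 6 arrays (adjusted p at most 0.0985, limma). Of the 8, Casp4 and Deup1 held with the block. The part of flanking sequence in these differences was not tested.

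The scratched cultures offered the same genotype comparison in 8 other arrays, whose spike-in sets moved with genotype in the same way. Both comparisons came from 1 limma fit that shares an estimate of the spread for each gene, so calls in the 2 states are not independent. In scratched cultures 1130 genes (6.21%) were called. Of the 872 genes called in uninjured cultures, 423 were also called in scratched ones, which is 48.5% of the former and 37.4% of the latter. The direction was shared by 415 of these 423, 264 higher and 151 lower, and opposite for 8. Among the 872, 789 had the same sign in the scratched comparison. The cilium lists had 127 of 199 genes higher and 0 lower there, with a median of 0.541, and the alveolar type 1 list had 20 of 25 lower, with a median of -0.629. Ager was -2.35 in scratched against -2.29 in uninjured cultures, Cldn18 -2.05 against -2.46, Cxcl1 -2.70 against -2.60, Casp4 -1.41 against -1.37, and Sftpc 1.80 against 1.504. None of these 5 genes differed between the states in the test of the difference (adjusted p between 0.679 and 0.937, limma), which does not show that they were equal.

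The genotype difference itself changed with scratching for 24 genes (0.132%; interaction term, limma, adjusted p under 0.05), and for 1417 at an unadjusted p under 0.05. Of the 24, 16 were among the genes called in uninjured cultures. Rasl11a, a small GTPase named after its values were seen, was -1.30 in uninjured cultures and -0.12 in scratched ones (adjusted p of the difference = 0.008). Cks2 was 0.48 against -0.03 (adjusted p = 0.0193), Kif2c, a mitotic kinesin, 0.67 against -0.39 (adjusted p = 0.0434), and Dbp 0.64 against -0.31 (adjusted p = 0.0197). Fabp5, a fatty acid binding protein, was 0.32 against -0.46 (adjusted p = 0.0193), and its call in uninjured cultures was lost on leaving out any of 5 arrays. The mitotic list, with 10 higher in uninjured cultures, had 8 lower and 0 higher in scratched ones, and its median went from 0.267 to -0.309. Of its 61 genes, 3 had a called change of the genotype difference.

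**Figure D5:**
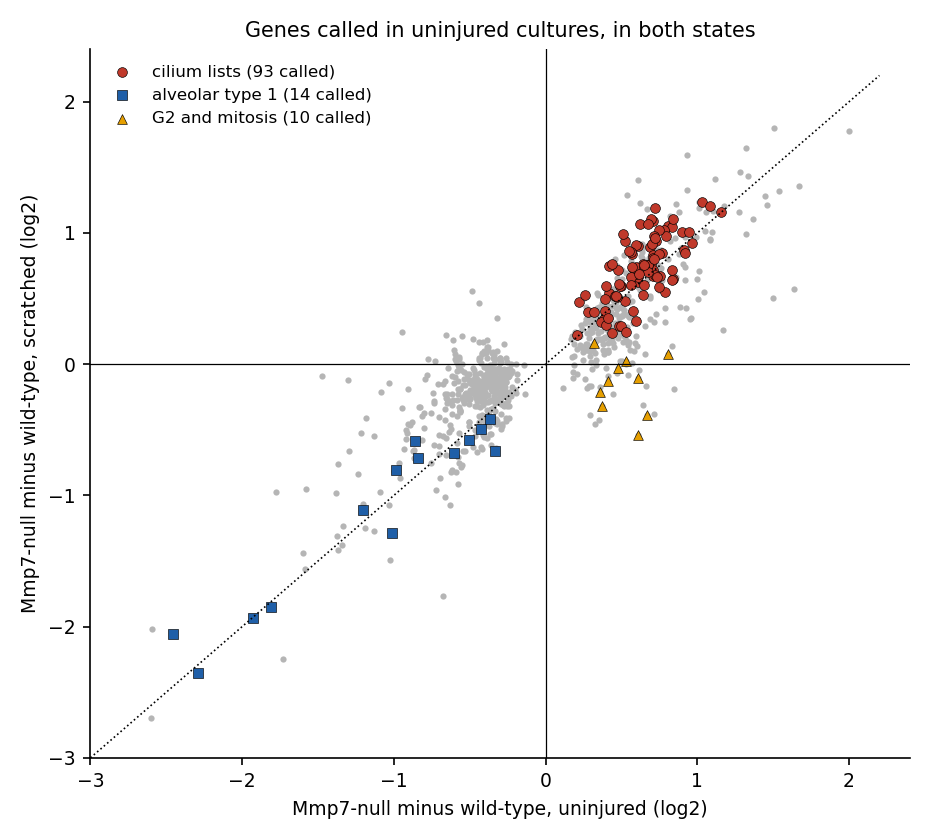
Genotype difference (Mmp7-null minus wild-type, log2) in scratched cultures (vertical) against that in uninjured cultures (horizontal) for the 872 genes called in uninjured cultures; the dotted line marks equal differences. Cilium genes (red circles) lie near the line above 0, alveolar type 1 markers (blue squares) near it below 0, and the 10 mitotic genes (orange triangles) lie to the right with scratched values near or below 0.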

How the data were processed

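Total RNA of 16 cultures was hybridised to Affymetrix mouse genome arrays, 1 culture to an array. The deposited table holds a linear intensity for each of 45101 probe sets, made by the authors with RMA per the submitters' processing notes (version not given); RMA normalizes arrays to each other, so shifts common to all genes are not seen, and it compresses low signals. The array's label protocol names a smaller design than the 1 these probe sets belong to. Genome build and software are not given in the sources used here. Arrays give no read depth, and their number limits the precision.

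Intensities were turned to log2 with nothing added. Of the probe sets, 34945 had 1 gene symbol, 932 several, 9160 none and 64 were controls; 18031 of the 18193 genes matched RefSeq. All 16 arrays in 4 groups entered 1 limma fit (version 3.58.1, R 4.3.3, 12 residual degrees of freedom), with empirical Bayes moderation and Benjamini-Hochberg adjustment over all genes. The fit was checked on simulated data with planted differences and independent noise. Those data held no spike-in set, so they do not check the p-values against it. The alternatives were the spike-in set or the replicate number as a block, 8 arrays only, other probe set rules, filters, weights and scalings, and leaving out arrays. Named genes are Mmp7, the 15 largest called differences each way without overlap, up to 4 called members of each list each way by adjusted p, called neighbours of Mmp7, and other list members that define a cell type or pathway; not all are printed. The members and lists were chosen with earlier results of these data known. Same-numbered arrays of the 2 genotypes did not deviate together (correlations -0.076, -0.206, -0.216 and -0.094), so replicate numbers were not taken as pairs.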

Additional observations from a re-analysis of the deposited data

Results flagged for a closer look

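In 6 of the 208 groups of 4 arrays that the named genes give, 1 array stood apart from the other 3 by Dixon's criterion, which chance alone meets in about 1 of 20 groups. Id3 was 7.99 in wild-type replicate 4 against 7.60 to 7.67 in the other wild-type arrays. H2-Aa was 4.89 in wild-type replicate 3 against 5.45 to 5.49, and H2-Ab1 was 3.32 in wild-type replicate 1 against 4.05 to 4.20. Casp1 was 9.23 in wild-type replicate 2 against 8.83 to 8.88. In the null arrays, Cks2 was 9.92 in replicate 2 against 10.02 to 10.03, and Yap1 was 8.83 in replicate 1 against 9.03 to 9.06.

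For 5 of the named genes the genotype difference itself differed between scratched and uninjured cultures (interaction term, limma, Benjamini-Hochberg adjusted p). The change, scratched minus uninjured, was 1.18 for Rasl11a (adjusted p = 0.008), -0.51 for Cks2 (0.0193), -0.78 for Fabp5 (0.0193), -0.95 for Dbp (0.0197) and -1.05 for Kif2c (0.0434).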

How the results depend on the processing

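The spike-in set had the strongest effect. With it as a block, 57 genes were called (33 higher and 24 lower) and 252 in scratched cultures; the cilium lists had 14 higher, the alveolar type 1 list 5 lower (median -0.405), the TGF-beta and BMP list 0 lower (median -0.124; 14 lower at an unadjusted p under 0.05, limma) and the neighbours of Mmp7 2 called. Within the Phe set, with 1 wild-type array assumed to vary like the other groups, 42 genes were called (4 higher and 38 lower), with 2 cilium genes, 2 type 1 markers, 0 TGF-beta and BMP genes (median -0.097) and 1 neighbour. With the replicate block, 807 genes and 4 neighbours were called and 14 genes for the interaction, although the numbers did not pair the samples. Without 3 scratched arrays that stood apart, 1310 genes were called (634 higher) and 50 for the interaction. Array weights gave 671 higher genes. Centring each array on its median gave 5 neighbours and a split of 329 higher and 420 lower. The TGF-beta and BMP median was -0.141 without the dimmest 40% of genes and -0.101 after quantile normalization, and the type 1 median -0.432 with all probe sets averaged. Leaving out 1 uninjured array gave 480 to 925 genes, 245 to 449 higher and 235 to 476 lower, a type 1 median of -0.522 to -0.439, and 3 to 8 neighbours. Yap1 turned to -0.575 and was called when its probe sets were averaged. The cause was not tested.

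Of 104 named genes 81 were called, of which 26 kept the call with the spike-in block and 62 in all settings run other than that block and the Phe set, within which 74 lost it. Acta2, Arntl, Kif2c and Fabp5 lost it without probe sets that may bind several transcripts (0.03, -0.002, 0.28 and 0.39). The substitute probe sets of Acta2 and Arntl, at means of 2.68 and 1.94, were below background and cannot check those calls. Cdh1, Dcn, Pigr and Fabp5 lost the call with only the 8 uninjured arrays. Casp12, Cetn4, Cyp1b1, Fabp5, Smad3, Tgfb2 and Tubb4b lost the call with all probe sets averaged. The other probe sets of Tubb4b (means of 1.57 to 3.86) and Cetn4 (2.94) were dim, so their averages cannot check those calls.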
